A study of Homo sapiens with 2 samples.

Results

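Messenger RNA levels of 8 splicing regulators were examined in BHT101, an established human line of anaplastic thyroid carcinoma: ESRP1, ESRP2, RBFOX2, MBNL1, MBNL2, QKI, PTBP1 and PTBP3. They were taken by gene name from the 58735 genes listed in both count tables, and all 8 were found. The cells were grown in DMEM with fetal bovine serum and sodium pyruvate, and RNA sequencing compared 1 library of control cells with 1 library of cells overexpressing SETDB2, a SET domain protein of the histone H3 lysine 9 methyltransferase group. The titles of both samples carry the word overexpression. The sources used here do not give the vector, what the control cells received, the time after its introduction or the number of clones. With a single library per group, no spread between cultures could be estimated, no p-value is given, and every interval covers counting error only. Where a pair of values is given below, the control comes first.

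These proteins bind short sequences in pre-mRNA and promote or block the inclusion of nearby exons. ESRP1 and ESRP2 are made in epithelial cells, bind GU-rich elements and maintain the epithelial forms of genes such as FGFR2, CD44, CTNND1 and ENAH. RBFOX2, which binds UGCAUG, and QKI, which binds ACUAA together with a nearby half-site, favour many of the mesenchymal forms that appear during epithelial-mesenchymal transition (EMT). MBNL1 and MBNL2 bind GC steps flanked by pyrimidines (such as UGCU) and drive exon choices typical of differentiated tissue. PTBP1 binds CU-rich tracts and represses exons in most non-neuronal cells, its paralog PTBP2 replaces it in neurons, and PTBP3 is the paralog first described in blood cells. Read counts per gene do not show which exons were included, so the activity of these proteins was not measured here.

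Stretches shared by paralogs are shown first, because a read that lies within a shared stretch cannot be assigned to either gene. In the coding sequences of GENCODE release 29 the longest identical run was 17 bases both between MBNL1 and MBNL2 and between PTBP1 and PTBP3. The run is in capitals and its flanks in lower case, written in the direction of the transcript. The positions of the runs on GRCh38 are chr3:152456341-152456357 (plus strand) for MBNL1, chr13:97366533-97366549 (plus strand) for MBNL2, chr19:805067-805083 (plus strand) for PTBP1 and chr9:112251033-112251049 (minus strand) for PTBP3, each within a coding exon.
MBNL1: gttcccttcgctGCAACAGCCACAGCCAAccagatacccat
MBNL2: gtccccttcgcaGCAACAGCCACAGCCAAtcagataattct
PTBP1: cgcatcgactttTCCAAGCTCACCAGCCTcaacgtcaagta
PTBP3: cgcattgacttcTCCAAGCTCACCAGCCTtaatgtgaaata
Over the aligned coding bases MBNL1 and MBNL2 were 73.3% identical and PTBP1 and PTBP3 71.2% identical. ESRP1 and ESRP2 were 64.5% identical, and their longest shared run was also 17 bases. The longest run of all paralog pairs compared was 47 bases, between RBFOX2 and RBFOX1, a gene with 0 counts in both libraries. Among pieces of 75 bases cut from the longest transcript of each gene, all pieces of ESRP1, RBFOX2, MBNL2, QKI, PTBP1 and PTBP3 were found in no other gene. The share was 98.4% for ESRP2, where the remaining pieces lie in NFATC3, and 84.9% for MBNL1, where they lie in MBNL1-AS1. The sources used here do not give the read length.

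The microRNAs of the miR-200 family, which in human epithelial cells repress QKI and the transcription factors ZEB1 and ZEB2, are shown because their seed can be read against the QKI transcript. Capitals mark the seed, bases 2 to 8 of each mature sequence from RefSeq (GRCh38.p14).
hsa-miR-200b-3p: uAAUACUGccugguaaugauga
hsa-miR-200c-3p: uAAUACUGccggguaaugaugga
hsa-miR-429: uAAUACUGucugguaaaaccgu
hsa-miR-200a-3p: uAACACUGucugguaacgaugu
hsa-miR-141-3p: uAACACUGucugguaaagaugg
The first 3 share the seed AAUACUG and the last 2 share AACACUG. In the 3′ untranslated region of the QKI transcript with the longest such region (QKI-203, 7886 bases), CAGTATT, the DNA complement of the first seed searched on the transcript strand, occurred 3 times. The 2 matches that are followed by an A lie at chr6:163573234-163573240 and chr6:163573302-163573308 on the plus strand.
QKI site 1: aatgccttggttctCAGTATTat
QKI site 2: gactttttttctgaCAGTATTat
Of 367 genes with an untranslated region at least this long, 59.9% held CAGTATT at least once and 7.9% at least 3 times in the same length. The match was not particular to QKI among the regulators. CAGTATT also occurred in 3′ untranslated regions of RBFOX2, PTBP1 and PTBP3, and once more in other QKI transcripts. CAGTGTT, the complement of the second seed, occurred in those of QKI and MBNL1. ESRP1 was not searched. The hairpin genes themselves had hardly any reads. MIR200B had 0 counts in the control library and 1 in that of SETDB2, MIR200C 0 and 2, MIR141 0 and 2, MIR200A 1 and 0, and MIR429 7 and 0. Mature microRNAs were not measured by these libraries, and the family was chosen after its values were seen.

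The counts summed to 33572025 in control cells and 34053348 with SETDB2. SETDB2 itself had 507 and 1370 counts, a log2 ratio (SETDB2 over control library) of 1.43 with a 95% counting interval of 1.28 to 1.58, and U2AF1, the gene named in the series title, had 1447 and 377 counts, a value that its near-identical copy on the same chromosome makes uncertain. Thyroid follicular markers were low in both libraries, with 4 of 8 at no more than 3 counts in each. NKX2-1 had 0 counts, TG 6 and 2, FOXE1 21 and 11, PAX8 42 and 30, and SLC26A4 17 and 35 (log2 ratio 1.01, 0.16 to 1.96). SLC26A4 passed the count filter described below through the SETDB2 library alone, and PAX8 through the control library alone. Among 20 markers of leukocytes, fibroblasts, endothelium, neurons and muscle, 7 had at most 3 counts in each library, PTPRC, CD3E and CDH5 among them. The fibroblast-associated genes LUM, with 1567 and 2126 counts, and COL1A1, with 535 and 1126, and the neuronal gene SYT1, with 1728 and 1462, were well counted. The fibroblast and pericyte genes DCN, with 14 and 8, and PDGFRB, with 17 and 12, were not. The FPKM of this marker list summed to 29.7 and 35.7, and its part in the results below was not tested. In bulk RNA, fewer cells of a type and less RNA per cell cannot be told apart.

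PTBP1 was the most abundant of the 8 regulators, and the ESRP genes were the least. FPKM, the authors' count per length of the gene and scaled to the library, was 75.3 in the control library and 76.8 in that of SETDB2 for PTBP1. MBNL1 followed with 29.02 and 31.2 FPKM, and PTBP3 with 21.7 and 24.7. RBFOX2 and MBNL2 lay close together at 16.2 and 15.6 FPKM in control cells and at 16.7 and 15.7 with SETDB2. The ratio of that pair was 1.04 (0.991 to 1.09) in the control, an interval that holds equality, and 1.06 (1.01 to 1.11) in the SETDB2 library. QKI had 10.7 and 11.5 FPKM, ESRP2 2.46 and 2.0, and ESRP1 0.103 and 0.134. On this scale the order of the 8 genes was the same in both libraries. It depended on the length assigned to a gene in its middle part. With the length of the longest GENCODE transcript in place of the table's gene length, which is 17368 bases for QKI, QKI stood above MBNL2 in both libraries (19.7 against 16.4 in the control). RBFOX2 then stood above PTBP3 in the control (23.4 against 22.3) but below it in the SETDB2 library (24.1 against 25.5), so that the order differed between the libraries. PTBP1, MBNL1, ESRP2 and ESRP1 kept their places.

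**Figure D1:**
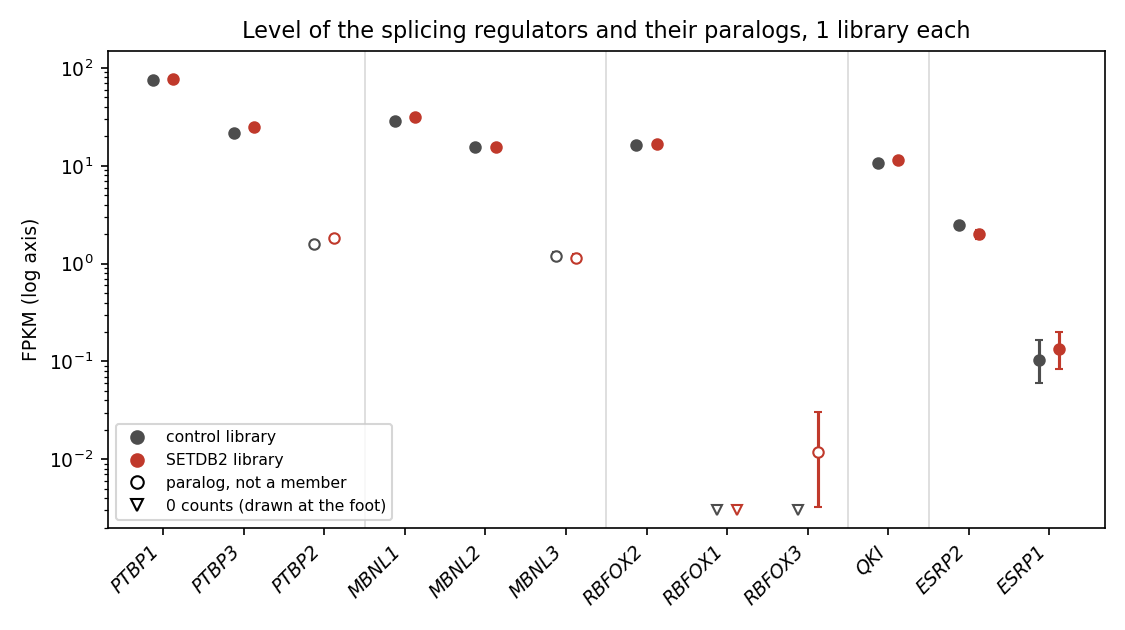
FPKM on a log axis for the 8 regulators (filled points) and their paralogs (open points) in the control (grey) and SETDB2 (red) libraries, with exact 95% Poisson intervals. PTBP1 stands near 76 FPKM in both libraries and ESRP1 near 0.1, while RBFOX1 has 0 counts in both (triangles at the foot).

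The epithelial regulators were the lowest of the 8, and ESRP2 was lower in the SETDB2 library, with an interval that came to hold 0 once a trend with GC content was removed. ESRP1 (ENSG00000104413, chromosome 8, 94641074 to 94707466, plus strand) had 17 counts in the control, with an exact Poisson interval of 9.9 to 27.2, and 22 in the SETDB2 library, with an interval of 13.8 to 33.3. The intervals overlap, and that of the log2 ratio of 0.36 reaches from -0.61 to 1.37. At this depth no difference in ESRP1 was detectable. Its level exceeded that of 34.1% of protein-coding genes in the control, and it was the single regulator that failed the count filter described below. ESRP2 (ENSG00000103067, chromosome 16, 68229111 to 68238102, minus strand) had 463 and 376 counts, 1.24-fold lower on a log2 ratio of -0.31 (-0.51 to -0.11). With the GC trend removed the ratio was -0.19 (-0.39 to 0.01). Of the 3470 genes with a summed count within 2-fold of its own, 23.5% had a ratio at least as far from 0 as -0.31. NFATC3, which overlaps the end of ESRP2 by 149 bases on the opposite strand, had 661 and 577 counts (log2 ratio -0.20, -0.37 to -0.04). The strand setting of the counting is not given, so reads from that overlap cannot be told apart. ESRP2 held 96.0% of the summed ESRP level per length in the control library and 93.7% in that of SETDB2. The ratio of ESRP2 to ESRP1 was 23.9 (14.7 to 41.3) in control cells and 14.98 (9.75 to 24.2) with SETDB2, and its log2 change of -0.67 had an interval of -1.70 to 0.33, which holds 0.

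RBFOX2 and QKI were both well expressed, with close levels in both libraries. RBFOX2 (ENSG00000100320, chromosome 22, 35738736 to 36028425, minus strand) had 5489 and 5640 counts (log2 ratio 0.03, -0.02 to 0.09). Its level lay above that of 86.4% of protein-coding genes in the control library and 86.5% in that of SETDB2. It was in practice the whole of its family. RBFOX1, the neuronal and muscle paralog, had 0 counts in both libraries, which allows up to 3 counts in each. RBFOX3, which encodes the neuronal marker NeuN, had 0 and 4. The lincRNA gene Z82217.1, within the RBFOX2 span on the opposite strand, had 4 and 15 counts, few beside those of RBFOX2. QKI (ENSG00000112531, chromosome 6, 163414000 to 163578596, plus strand) had 6310 and 6750 counts (log2 ratio 0.09, 0.04 to 0.14), or 1.06-fold. No listed gene overlaps it. Per length, QKI stood at 0.663 of the RBFOX2 level (0.639 to 0.687) in control cells and at 0.69 (0.666 to 0.715) with SETDB2. The log2 change of that ratio was 0.06 (-0.02 to 0.13), an interval that holds 0.

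RBFOX2 and QKI stood above the ESRP genes in both libraries, and more so in the SETDB2 library. RBFOX2 and QKI together had 26.9 FPKM and the ESRP genes together 2.56 in the control, a ratio of 10.5 (9.59 to 11.5). In the SETDB2 library the sums were 28.2 and 2.13, a ratio of 13.2 (11.9 to 14.6). The intervals do not overlap. Taken on summed counts, not divided by length, the log2 change of the ratio was 0.34 (0.14 to 0.54). This value does not depend on how the libraries are scaled to each other. The ratio of ESRP2 alone was -0.31, beside 0.03 for RBFOX2 and 0.09 for QKI. After removal of a trend with GC content, described below, the change was 0.18 (-0.02 to 0.38), an interval that holds 0.

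MBNL1 was the larger of the MBNL genes. MBNL1 (ENSG00000152601, chromosome 3, 152243828 to 152465780, plus strand) had 9804 and 10544 counts (log2 ratio 0.10, 0.06 to 0.14), or 1.07-fold. The antisense gene MBNL1-AS1 had 26 and 19 counts, and RF00019, a small RNA gene within the MBNL1 span on the same strand, had 14 and 28. Both are few beside the counts of MBNL1. The strand setting is not given, so reads from the stretch shared with MBNL1-AS1 cannot be told apart. MBNL2 (ENSG00000139793, chromosome 13, 97221434 to 97394120, plus strand) had 2591 and 2607 counts, and its log2 ratio was 0.00 (-0.08 to 0.08). It was -0.01 with libraries scaled to total counts and -0.10 (-0.18 to -0.02) with the trend in GC content removed. MBNL3, the X-linked paralog that in mouse is linked to undifferentiated muscle cells, had 491 and 468 counts (log2 ratio -0.08, -0.26 to 0.11). Of the summed level per length, MBNL1 held 63.3% in the control library and 65.0% in that of SETDB2, MBNL2 34.1% and 32.7%, and MBNL3 2.6% and 2.36%. The MBNL1 to MBNL2 ratio was 1.86 (1.78 to 1.94) and 1.99 (1.9 to 2.08). Its log2 change was 0.10 (0.01 to 0.18).

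PTBP3 had the highest ratio among the regulators kept, although PTBP1 took that place once the trend with GC content was removed. PTBP1 (ENSG00000011304, chromosome 19, 797075 to 812327, plus strand) had 17525 and 17859 counts (log2 ratio 0.02, -0.01 to 0.05). Its level exceeded that of 97.9% of protein-coding genes in both libraries. PTBP3 (ENSG00000119314, chromosome 9, 112217716 to 112333667, minus strand) had 6042 and 6878 counts (log2 ratio 0.18, 0.13 to 0.23), or 1.13-fold. Of the 2059 genes with a summed count within 2-fold of that of PTBP3, 25.8% had a ratio at least as far from 0. The neuronal paralog PTBP2 had 689 and 796 counts (log2 ratio 0.20, 0.05 to 0.35). PTBP2 transcripts were thus detected, at 1.57 and 1.82 FPKM, and PTBP1 stood 47.8-fold (44.3 to 51.7) above them in control cells and 42.2-fold (39.3 to 45.3) with SETDB2. PTBP1 held 76.4% of the summed PTBP level per length in the control library and 74.3% in that of SETDB2, and PTBP3 22.004% and 23.9%. The PTBP1 to PTBP3 ratio was 3.47 (3.37 to 3.58) and 3.11 (3.02 to 3.2), a log2 change of -0.16 (-0.22 to -0.10). The direction of that change turned to 0.08 (0.02 to 0.14) when the trend with GC content was removed. For the PTBP1 to PTBP2 ratio the log2 change was -0.18 (-0.33 to -0.03). It became 0.07 (-0.08 to 0.22) with the trend removed, an interval that holds 0.

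**Figure D2:**
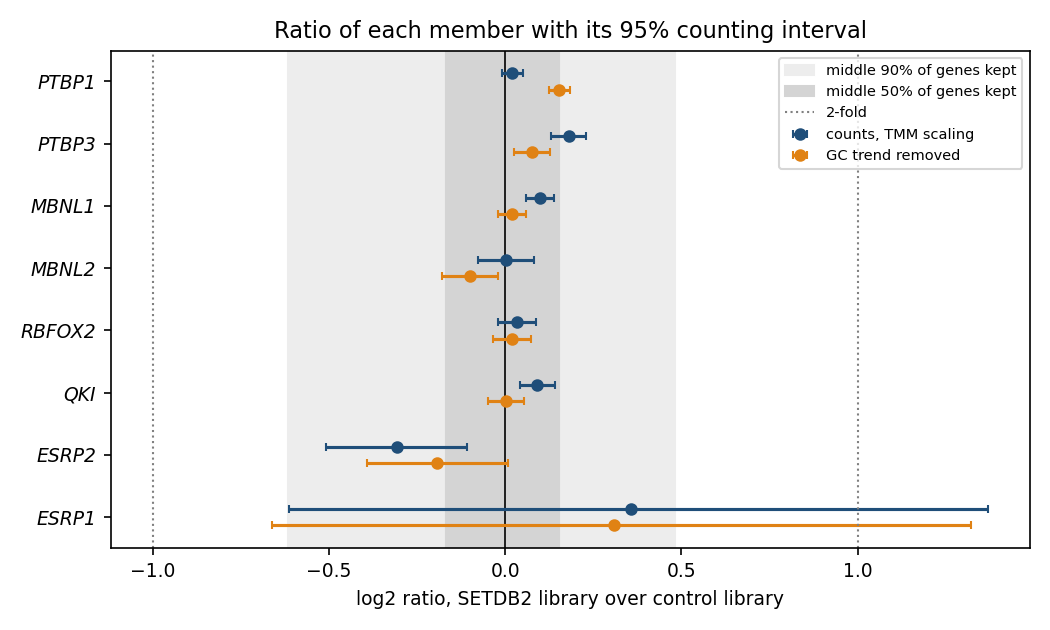
Log2 ratio of the SETDB2 over the control library for each regulator with its 95% counting interval, from scaled counts (blue) and after removal of the trend with GC content (orange). Grey bands hold the middle 50% and 90% of the 14518 genes kept, and ESRP1 has the widest interval, from -0.61 to 1.37.

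No regulator differed strongly between the libraries, and most lay close to the middle of all genes. A gene was kept when its counts summed to 50 or more and it reached 1 CPM (its count relative to the scaled library size) in 1 library, which left 14518 genes and 7 of the 8 regulators. None of the 7 was at least 2-fold higher or lower with an interval excluding equality, against 2.68% of the genes kept (1.07% higher and 1.61% lower). None reached a smaller threshold, a log2 ratio of 0.3219 in either direction, by the same rule, against 18.3% of the genes kept. ESRP2 at 1.24-fold lower was nearest to that threshold. The ratios of the 7 ran from -0.31 to 0.18 with a median of 0.03, beside a median of 0.00 for all genes kept, and 6 of 7 lay above 0, against 50.4% of the genes kept, and 1 below, against 49.6%. With total counts, or with the trend in GC content removed, 5 of 7 lay above 0. Intervals excluded equality for 4 of the 7, against 51.0% of the genes kept: MBNL1, QKI and PTBP3 lay above it (26.3% of the genes kept) and ESRP2 below it (24.7%). That share was 68.6% among the 3968 genes whose counts summed to 4000 or more, and the robust standard deviation of their ratios was 0.15. RBFOX2, MBNL1, MBNL2, QKI and PTBP1 lay within that distance of 0, and PTBP3 just beyond it.

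**Figure D3:**
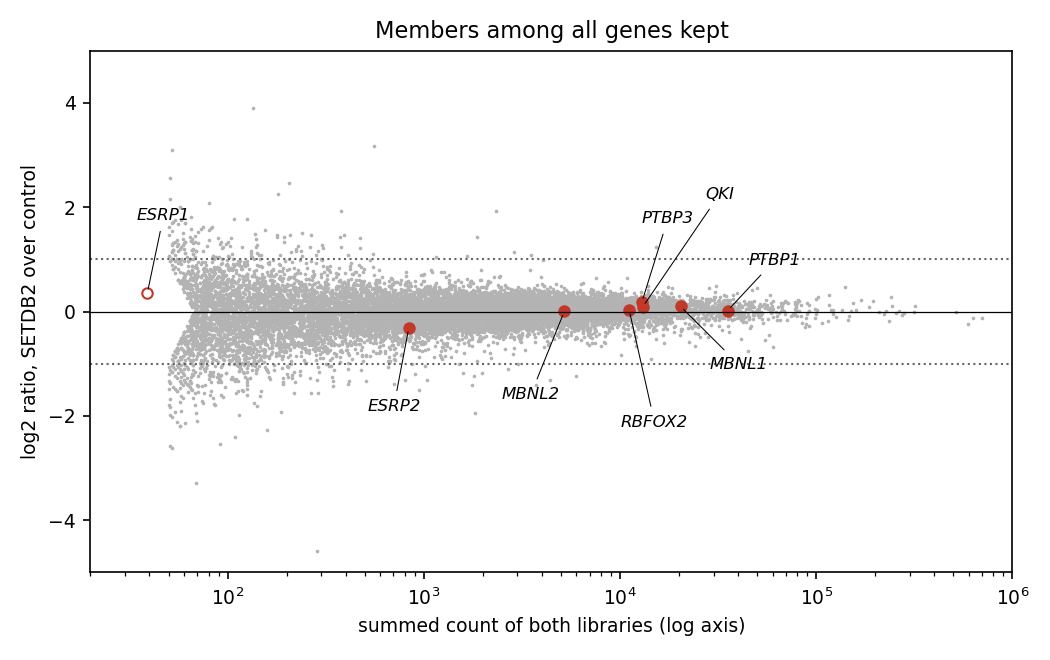
Log2 ratio against the summed count of both libraries (log axis) for the 14518 genes kept (grey) and the 8 regulators (red, ESRP1 open because it failed the count filter). Dotted lines mark 2-fold, and the 7 regulators kept lie between -0.31 and 0.18.

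Removing a trend with GC content moved the small ratios of most regulators, those of PTBP1 and MBNL2 away from 0 and those of PTBP3, MBNL1, QKI and ESRP2 towards it. Across 10234 genes whose counts summed to 500 or more, the Spearman correlation of the log2 ratio with GC content was -0.41, given as a description since the genes share both libraries. The longest transcripts of PTBP3 (36.6% GC), MBNL2 (36.8%), QKI (38.7%) and MBNL1 (39.9%) lay at the low end, and those of ESRP2 (59.6%) and PTBP1 (61.7%) at the high end, beside a median of 47.8% for the genes kept. With a smoothed trend removed, PTBP1 went from 0.02 to 0.15 (0.12 to 0.18) and became the highest of the 7. PTBP3 went to 0.08 (0.03 to 0.13) and MBNL2 to -0.10 (-0.18 to -0.02). MBNL1 went to 0.02 (-0.02 to 0.06), QKI to 0.00 (-0.05 to 0.05) and ESRP2 to -0.19 (-0.39 to 0.01), so that the intervals of these 3 then held 0. RBFOX2, with a GC content of 45.7%, went from 0.03 to 0.02 (-0.04 to 0.07). With 1 library per group, a difference between the cells and a difference between library preparations cannot be told apart.

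**Figure D4:**
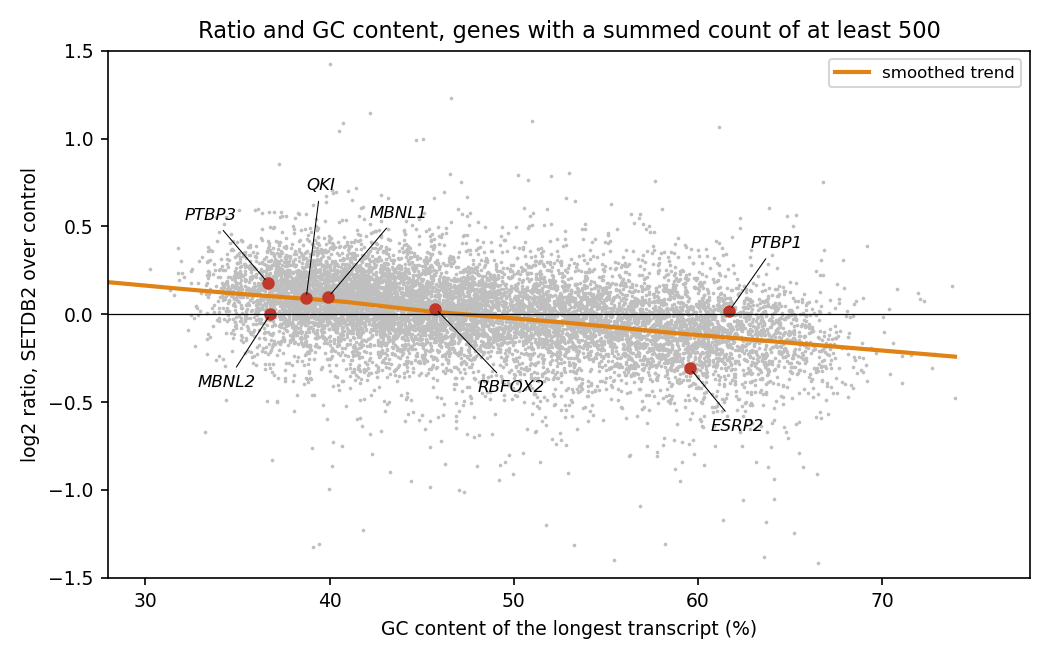
Log2 ratio against the GC content of the longest transcript for genes whose counts summed to 500 or more (grey; 5 genes lie beyond the axes), with the smoothed trend (orange) and the 7 regulators kept (red). PTBP3, QKI, MBNL1 and MBNL2 lie on the AT-rich side and ESRP2 and PTBP1 on the GC-rich side.

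Among other splicing regulators, RBM24 was higher and RBM47 lower in the SETDB2 library. The list mixes tissue-restricted genes with widely expressed ones such as ELAVL1, KHDRBS1 and TIAL1, so its counts and median describe both kinds. Of 35 listed, 22 were kept, 17 with a ratio above 0 and 5 below, against 50.4% and 49.6% of all genes kept. Their median log2 ratio was 0.10, beside 0.00 for all genes kept. Past the log2 ratio of 0.3219, with an interval excluding equality, lay 4 higher genes (7.74% of all genes kept) and 1 lower gene (10.5%). RBM24, a regulator of muscle exons, was the single one past 2-fold, with 101 and 274 counts (log2 ratio 1.43, 1.099 to 1.78). Of all genes kept, 1.07% were at least 2-fold higher by that rule. RBPMS2, a smooth muscle regulator, had 153 and 217 counts (log2 ratio 0.50, 0.19 to 0.81), and RAVER2, a partner of PTBP1, had 34 and 54 (log2 ratio 0.65, 0.02 to 1.32). RBM47, an RNA-binding protein of epithelial cells, was lower, with 1939 and 1430 counts (log2 ratio -0.45, -0.55 to -0.35). The neuronal regulators SRRM4, ELAVL2, ELAVL4 and CELF3 had 0 counts in both libraries, while the neuronal regulator NOVA1 had 198 and 249 counts (log2 ratio 0.32, 0.05 to 0.60).

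Genes whose exons are known to switch during EMT were mostly well expressed, with small differences in their total counts. Of 20 listed, 19 were kept, 12 above 0 and 7 below (50.4% and 49.6% of the genes kept), with a median log2 ratio of 0.09. None passed 2-fold, beside 2.68% of the genes kept. LSR, a receptor of tricellular junctions, was lower at 184 and 120 counts (log2 ratio -0.62, -0.97 to -0.28), and was the single one past a log2 ratio of 0.3219 in either direction, beside 18.3% of the genes kept (10.5% lower). RALGPS2 had 1480 and 1832 counts (log2 ratio 0.30, 0.20 to 0.40), and the exocyst subunit EXOC7 2077 and 1726 (log2 ratio -0.27, -0.37 to -0.18). FGFR2, the gene whose exon choice first marked the ESRP proteins, had 0 counts in both libraries. The hyaluronan receptor CD44 had 109 and 121 FPKM, p120 catenin (CTNND1) 35.3 and 32.4, and the actin regulator ENAH 11.3 and 13.2.

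The state markers showed a mixed profile in both libraries. E-cadherin (CDH1) had 121 and 98 counts, 0.579 and 0.469 FPKM, and GRHL2, an epithelial transcription factor, had 1 and 0. The epithelial adhesion gene EPCAM had 493 and 549 counts, and keratin KRT8 was high at 141 and 146 FPKM. On the mesenchymal side vimentin (VIM) stood at 145 and 171 FPKM and N-cadherin (CDH2) at 42.8 and 50.5. ZEB1, a repressor of ESRP1 in other human carcinoma cells, had 1618 and 1732 counts (log2 ratio 0.09, -0.01 to 0.19), and ZEB2 2018 and 2271 (log2 ratio 0.16, 0.08 to 0.25). Of 18 epithelial genes 12 were kept, 7 above 0 and 5 below (50.4% and 49.6% of the genes kept), with a median of 0.05. Past the smaller threshold downwards lay 2 of them, beside 10.5% of the genes kept. These were the claudin CLDN7 (241 and 141 counts, -0.78, -1.09 to -0.47) and CDS1 (193 and 135 counts, -0.52, -0.85 to -0.20). The claudin CLDN3 had 28 and 36 counts, and its interval held 0. It passed the count filter through the SETDB2 library alone. Of 15 mesenchymal genes 13 were kept, 8 above 0 and 5 below (50.4% and 49.6% of the genes kept), with a median of 0.16. At a summed count of at least 200, the medians were -0.02 for the epithelial and 0.16 for the mesenchymal genes. With the trend in GC content removed, the medians were 0.076 for the epithelial and 0.085 for the mesenchymal genes. Without that removal, 4 mesenchymal genes passed the smaller threshold upwards (7.74% of the genes kept) and 1 downwards (10.5%). The transcription factor SNAI1 (116 and 215 counts, 0.88, 0.55 to 1.22), SPARC (3467 and 4747 counts, 0.45, 0.38 to 0.51), TGFBI (20111 and 26817 counts, 0.41, 0.38 to 0.43) and TWIST1 (181 and 233 counts, 0.36, 0.07 to 0.65) were the higher ones, and fibronectin FN1 (37034 and 23188 counts, -0.68, -0.71 to -0.66) was the lower one.

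**Figure D5:**
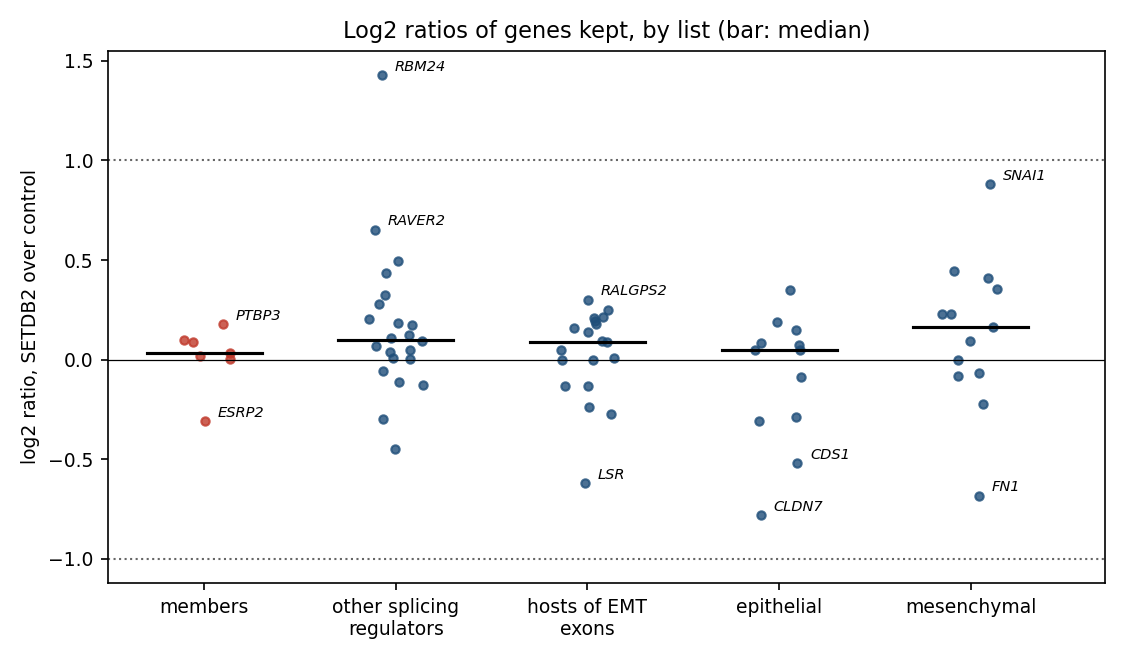
Log2 ratios of the genes kept in each list, with the list median as a bar and the 2 genes farthest from 0 named. The 7 regulators lie between -0.31 and 0.18, while RBM24 among the other splicing regulators stands at 1.43 and fibronectin FN1 among the mesenchymal genes at -0.68.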

How the data were processed

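Total RNA from 2 BHT101 libraries was sequenced. The authors deposited whole-number read counts and FPKM values per gene. The submitters' processing notes name Cuffdiff 2.1.1, Cufflinks 2.1.1, TopHat2 2.0.9 and Bowtie2 2.0.6 without roles, and the sources used here do not give the counting program, strand setting or genome build. All 58735 genes had the same start, end and strand in GENCODE release 29 (GRCh38). Each deposited FPKM was the count over the table's gene length and 1 constant per library. Counts were scaled with TMM factors (edgeR 4.0.16, R 4.3.3). Log2 ratios used a prior count of 0.5, and 95% intervals are exact Clopper-Pearson intervals of the ratio of 2 counts (scipy 1.17.1). For ratios of genes across libraries they are exact conditional odds ratio intervals. The calculation was tested on simulated Poisson counts, the model that the intervals assume. These hold no spread between cultures and no GC trend, so the test checks the arithmetic only. GC content was that of the longest GENCODE transcript, and its trend was fitted by lowess (statsmodels 0.14.6). DESeq2 1.42.0 size factors, total counts, other priors and filters, and FPKM with pseudocounts of 0.1 and 1 were alternatives. PCR copies are not independent molecules. The 8 genes and all lists were chosen with earlier results of these data known. Named genes were the regulators, their paralogs, the state markers, overlapping genes with at least 10 counts and up to 4 genes per list with the largest ratios, of which 1 is not reported here. Genes named beyond these were chosen after their values were seen.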

Additional observations from a re-analysis of the deposited data

How the results depend on the processing

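Across 168 recomputed values 131 stayed within set limits. These were counting error for ratios and shares, and 1.5 times the count reported for counts. List medians had to stay between the median lower and median upper interval bound of their genes, a wide limit that let signs change. At a summed count of at least 200, the median of other cell type markers went from -0.21 to 0.13 and the epithelial median from 0.05 to -0.02. With the GC trend removed, the paralog median went from 0.06 to -0.05. DESeq2 size factors, total counts, a prior count of 5 and FPKM with either pseudocount moved no regulator's ratio beyond its interval, and no regulator passed 2-fold or a log2 ratio of 0.3219 with an interval excluding equality, a rule applied with both scalings, the GC correction and both other filters. ESRP2 came to -0.3204 with total counts. Removal of the GC trend gave 0.0198 for MBNL1, -0.10 for MBNL2, 0.0026 for QKI, 0.15 for PTBP1 and 0.0767 for PTBP3. It turned the log2 change of the PTBP1 to PTBP3 ratio to 0.0769 (0.02 to 0.14). That of the PTBP1 to PTBP2 ratio went to 0.0716 (-0.08 to 0.22), an interval that holds 0. The change of QKI to RBFOX2 moved to -0.0163. The corrections for the ratios of 2 genes, and lengths of the longest transcript, were chosen after seeing the data. Of all genes, 389 passed 2-fold and 2650 passed a log2 ratio of 0.3219 as reported, 1922 and 4202 without the count filter, and 79 passed 2-fold at a summed count of at least 200, as fewer genes of low count are then tested. Without the filter the thyroid list's median was -0.70, from 0.26 over 2 genes. Each of these, PAX8 and SLC26A4, passed the filter only through the library where it was higher. Family shares depended on length by construction. Without division by length MBNL1, MBNL2 and MBNL3 held 76.1%, 20.1% and 3.81% in the control and 77.4%, 19.1% and 3.44% in the SETDB2 library. PTBP1, PTBP2 and PTBP3 then held 72.3%, 2.84% and 24.9%, and 69.9%, 3.12% and 26.9%. With the longest transcript's length the MBNL shares were 71.7%, 26.2% and 2.05%, and 73.1%, 25.01% and 1.86%. The PTBP shares were 82.2%, 1.254% and 16.5%, and 80.5%, 1.39% and 18.1%. No paired analysis was possible because each group holds 1 library. Depth limits ESRP1 most among the 8 regulators, with 17 and 22 counts.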

Other observations

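With 2 libraries a gene's pattern is 2 levels, so genes that resemble a regulator share a level and a ratio and nothing more. By Euclidean distance in log2 FPKM over the 2 libraries, the protein-coding genes kept that lay nearest to ESRP2 were FBXO44 (2.44 and 1.99 FPKM, distance 0.015), RNLS (2.48 and 2.02 FPKM, distance 0.016) and SUFU (2.5 and 1.99 FPKM, distance 0.025). Nearest to ESRP1, which had the largest absolute ratio but failed the count filter, were KLF8 (32 and 40 counts), MAGI2 (119 and 143 counts) and CGNL1 (32 and 42 counts).

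Of the 20 markers of other cell types, 10 were kept, and they went in both directions. Higher past the log2 ratio of 0.3219, with an interval excluding equality (7.74% of the genes kept), were COL1A1 (1.07, 0.92 to 1.22), LUM (0.43, 0.34 to 0.53) and the synaptic gene SNAP25 (67 and 155 counts, 1.20, 0.78 to 1.64). Lower past it, beside 10.5% of the genes kept, were the muscle genes ACTN2 (-0.63, -1.01 to -0.25) and DES (38 and 21 counts, -0.85, -1.70 to -0.06) and the endothelial gene PECAM1 (-0.58, -1.02 to -0.14). DES passed the count filter through the control library alone. The other neuronal markers did not follow SNAP25, with SYT1 at -0.25 (-0.35 to -0.15), TUBB3 at -0.18 (-0.52 to 0.17) and STMN2 at 0.13 (-0.39 to 0.65).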
